A study of Plutella xylostella with 12 samples.

Results

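miR-750 and miR-1175 are a pair of insect microRNAs (miRNAs) whose genes lie side by side in many insects. Both arms of each were followed here: pxy-miR-750-3p, pxy-miR-750-5p, pxy-mir-1175-3p and pxy-mir-1175-5p, which were taken by name and are 4 of the 105 miRNA names listed over 12 small RNA libraries. All libraries came from whole larvae (3rd instar) of *Plutella xylostella*, the diamondback moth, of the insecticide-susceptible Waite strain, which had survived exposure to the diamide insecticide chlorantraniliprole, which opens the ryanodine receptor of muscle. The 4 groups of 3 libraries combine a low dose of 0.01 ppm or a high dose of 0.1 ppm with sampling at 6 h or at 24 h. Every group was exposed, and the study's unexposed larvae were not analysed here, so each difference below is between doses or between times. The study asked how the miRNAs of this moth respond to the insecticide.

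A miRNA is cut from a hairpin, and the duplex that results has a 5p and a 3p strand. Usually one strand is kept by an Argonaute protein and guides silencing of messenger RNAs, while the other is mostly degraded, so the arm ratio describes which strand accumulates. Neighbouring miRNAs are often cut from one primary transcript, in which case they share transcription but not the later steps of processing and decay. In mosquitoes miR-1175 is known as a midgut miRNA. No role in this moth is given here for miR-750.

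Library totals ran from 10714 to 41214 counts, with 10714 to 30676 at 6 h and 28682 to 41214 at 24 h, so the 6 h values rest on fewer counts. The files list no row under 5 counts, so an unlisted name is not a measured 0. Each name fills several rows whose nature the files do not state, and counts were summed over them. Of 5 tissue marker families, the muscle miRNA mir-1 (pxy-mir-1-3p, 8 to 71 counts) and the midgut and tubule miRNA mir-281 (pxy-miR-281-5p, 1311 to 5922 counts) were listed in all 12 libraries, whereas mir-133 of muscle, mir-124 of nervous tissue and mir-8 were not listed. In RNA from whole larvae, fewer cells of a type and less of a miRNA per cell cannot be told apart.

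The 4 miRNAs differed widely in abundance, and the more abundant arm was the 3p arm of miR-750 but the 5p arm of miR-1175. pxy-miR-750-3p was listed in all 12 libraries with 197 to 1297 counts and was the 10th most abundant name, and pxy-miR-750-5p had 61 to 226 counts, 0.524% ± 0.106 (SD, n = 12) of a library. pxy-mir-1175-5p had 25 to 143 counts, 0.312% ± 0.0599 (SD, n = 12). pxy-mir-1175-3p was the rarest, with 6 to 54 counts in the 11 libraries that list it, 0.0627% ± 0.032 (SD, n = 11), and was not listed in high-dose replicate 1 at 6 h. Together the 4 miRNAs took 2.697% to 3.95% of the counts of a library. All 4 had enough counts to be tested among the 73 tested names.

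After 24 h, larvae given the high dose had less pxy-miR-750-3p than larvae given the low dose, and its level at the low dose was higher at 24 h than at 6 h. The levels were 33879, 34127 and 31999 CPM (counts scaled to a common library size, here with TMM factors, which set aside the most divergent miRNAs when libraries are brought to one scale) in the low-dose and 22908, 23857 and 18591 CPM in the high-dose libraries at 24 h. At 6 h they were 25399, 18666 and 18927 CPM at the low dose and 21196, 18982 and 22490 CPM at the high dose. The 3 low-dose libraries at 24 h stood above the other 9, which overlapped one another.

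**Figure D1:**
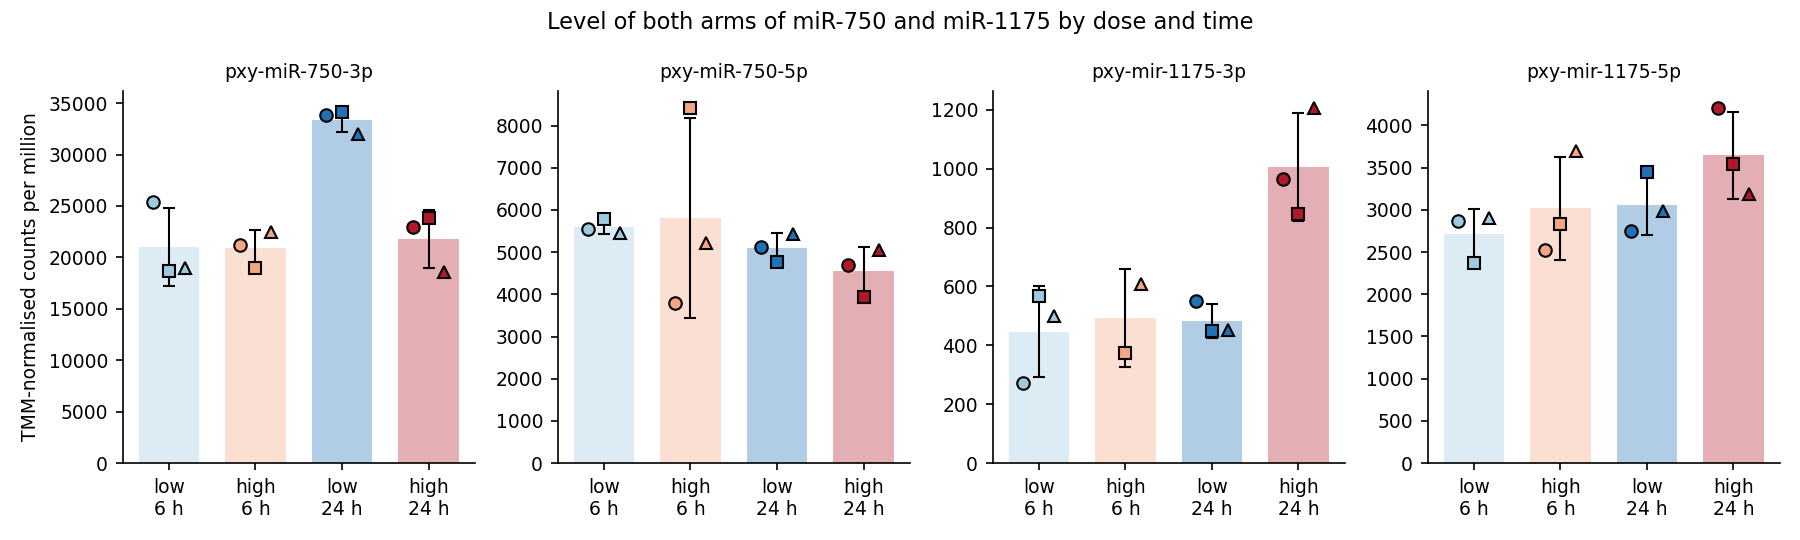
Levels of the 4 miRNAs in TMM-normalised CPM (linear axes from 0) by dose and time. Points are libraries (circle, square and triangle for replicates 1, 2 and 3), bars are group means and whiskers SD. The 3 low-dose libraries at 24 h lie between 31999 and 34127 CPM for pxy-miR-750-3p, above the other 9, and the 3 high-dose libraries at 24 h lie highest for pxy-mir-1175-3p, which 1 library at 6 h does not list.

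At 24 h the level of pxy-miR-750-3p fell from 33340 ± 1163 (SD, n = 3) to 21790 ± 2807 CPM, a log2 fold change of -0.61 ± 0.13 SE (1.53-fold, adjusted p = 0.00159 by the quasi-likelihood test of edgeR, Benjamini-Hochberg over the 73 tested names). It was 1 of the 4 members to pass in this comparison, where 16.4% of all tested names passed, 9.59% with less and 6.85% with more at the high dose. The doses did not overlap at 24 h for 2 of the 4 members, pxy-miR-750-3p and pxy-mir-1175-3p, against 41.1% of tested names (15.1% higher and 26% lower). From 6 h to 24 h at the low dose it rose from 21000 ± 3814 CPM by a log2 of 0.65 ± 0.13 SE (1.57-fold, adjusted p = 0.00175, edgeR), again as 1 of 4 members, with 19.2% of the tested names passing, 13.7% higher and 5.48% lower at 24 h. Here the times did not overlap for both arms of miR-750, against 35.6% of tested names (27.4% higher and 8.22% lower). These comparisons share the low-dose libraries at 24 h, so they are not separate evidence. Between doses at 6 h, where 1.37% passed, its difference was -0.02 (95% interval -0.30 to 0.26), and between times at the high dose, where 6.85% passed (2.74% higher and 4.11% lower), it was 0.06 (-0.22 to 0.34). The difference between the dose effects at 6 h and at 24 h was -0.60 ± 0.19 SE and did not pass (adjusted p = 0.053, edgeR, with 8.22% of names passing, 2.74% upward and 5.48% downward). That call rested on the settings: it passed with the replicate number as a block (-0.61, adjusted p = 0.0419, edgeR), without low-dose replicate 1 at 6 h (-0.68, adjusted p = 0.0207) and without high-dose replicate 2 at 24 h (-0.67, adjusted p = 0.0351). These were 2 of 12 fits that left out 1 library. No other setting passed, among them library totals (-0.24, adjusted p = 0.464), upper quartile factors (-0.41, adjusted p = 0.368) and RLE factors (-0.51, adjusted p = 0.116). The same held for DESeq2 (-0.51, adjusted p = 0.106), the largest row in place of the sum (-0.64, adjusted p = 0.123, edgeR) and no filter (-0.50, adjusted p = 0.0718, edgeR).

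The dose call on pxy-miR-750-3p depended on the scaling and on single libraries. It did not pass with library totals (-0.39, adjusted p = 0.0555, edgeR) or upper quartile factors (-0.24, adjusted p = 0.352), the latter moving the median of all tested names from -0.16 to 0.21, nor, among the 24 h libraries, when replicate 1 (-0.46) or 2 (-0.46) of the low dose or replicate 3 (-0.39) of the high dose was left out. The rise at the low dose did not pass without low-dose replicate 3 at 6 h (0.49, adjusted p = 0.0702, edgeR).

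The other arm, pxy-miR-750-5p, passed in no comparison (edgeR). Its levels were 5550.4, 5779.7 and 5446.6 CPM at the low dose and 3785.1, 8408.8 and 5205.6 CPM at the high dose after 6 h. After 24 h they were 5125.3, 4762.5 and 5435.3 CPM at the low and 4685, 3941 and 5043.9 CPM at the high dose. High-dose replicates 1 and 2 at 6 h hold the lowest and the highest of the 12 values, and the doses overlap at both times. The dose difference at 24 h was -0.16 (95% interval -0.57 to 0.24), and the time difference at the high dose was -0.36 (-0.77 to 0.06), on the log2 scale. The last rested on the 2 extreme libraries at 6 h: it was -0.62 (adjusted p = 0.0289, edgeR) without high-dose replicate 1 and -0.037 (adjusted p = 0.94) without high-dose replicate 2. It was also smaller with library totals (-0.19) and upper quartile factors (-0.13). At the low dose its 24 h libraries all stood below its 6 h libraries, as in 8.22% of tested names, the nearest at 5435.3 and 5446.6 CPM. The difference of -0.13 (-0.55 to 0.30) did not pass. It was -0.33 with library totals (adjusted p = 0.254, edgeR) and -0.60 with the largest row in place of the sum (adjusted p = 0.101, edgeR). This time difference passed under no setting.

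The level of pxy-mir-1175-5p, the more abundant arm of its hairpin, passed in none of the 5 comparisons either. It measured 2865.7, 2368.7 and 2904.9 CPM at the low and 2523.4, 2830.7 and 3700.8 CPM at the high dose after 6 h. After 24 h it measured 2750.9, 3446.9 and 2984.1 CPM at the low and 4202.8, 3544.2 and 3191.5 CPM at the high dose. The doses overlap at both times. At 24 h the high-dose mean of 3646 ± 513 (SD, n = 3) CPM was the highest of the 4 group means and the low-dose mean at 6 h, 2713 ± 299 CPM, the lowest, and neighbouring groups in this order overlapped. The dose difference at 24 h was 0.24 on the log2 scale (95% interval -0.10 to 0.59). It was past the threshold with upper quartile factors (0.62, adjusted p = 0.0346, edgeR), and also at 0.99 (adjusted p = 0.044, edgeR) when rows under 5 counts per 10714, the total of the shallowest library, were dropped from every library.

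The rare arm pxy-mir-1175-3p had its highest levels at the high dose after 24 h, without passing the test. Those 3 libraries gave 964.6, 846.4 and 1205 CPM against 550.2, 447.3 and 453 CPM at the low dose. At 6 h the low-dose libraries gave 271, 568.5 and 499 CPM, and the 2 high-dose libraries that list it 375 and 610.0 CPM. All 3 high-dose libraries at 24 h stood above the other 8 listed values, and in 15.1% of tested names the high-dose libraries at 24 h were likewise all above the low-dose ones. Between times at the high dose it was the 1 member whose groups did not overlap, against 20.5% of tested names (12.3% higher at 24 h). The log2 fold change between doses at 24 h was 1.06 ± 0.46 SE (adjusted p = 0.12, edgeR), and between times at the high dose 1.54 ± 0.53 SE (adjusted p = 0.1, edgeR), a value that also depends on the unlisted library, which entered the fit as 0.

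**Figure D2:**
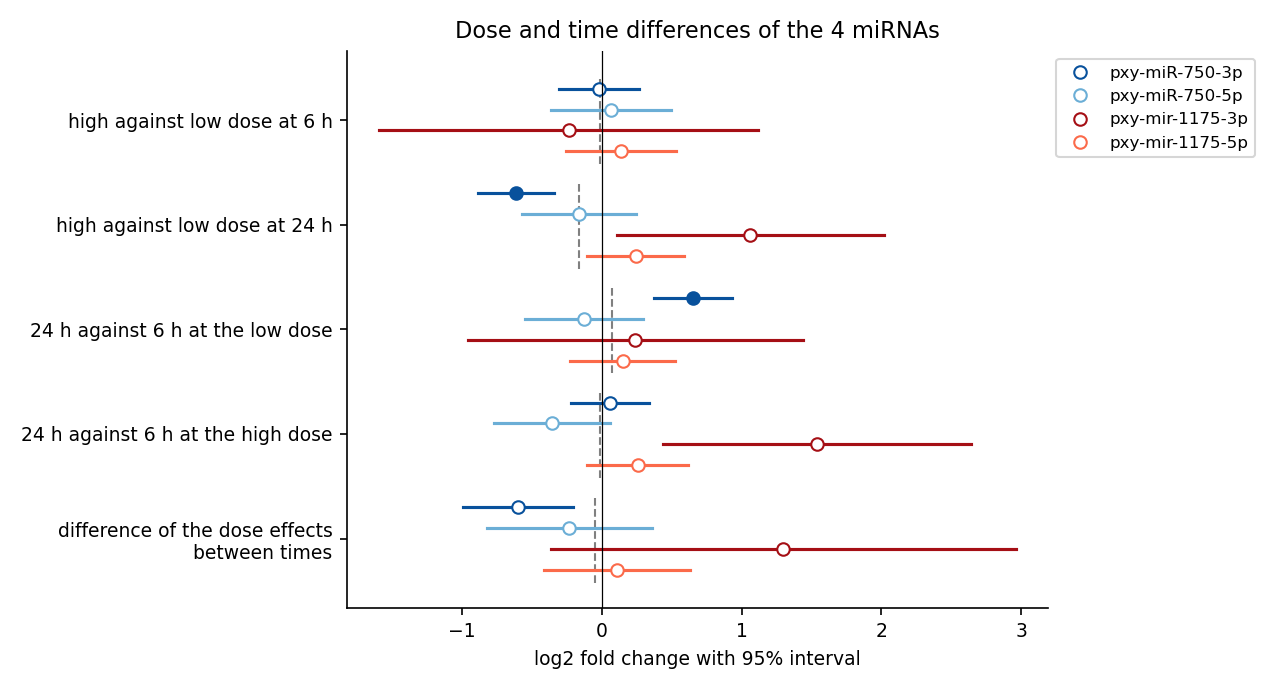
Log2 fold changes of the 4 miRNAs in the 5 comparisons, with lines for 95% intervals from the edgeR fit. Filled points passed an adjusted p of 0.05, open points did not, and dashed lines mark the median of the 73 tested names. The filled points are pxy-miR-750-3p, lower at the high dose after 24 h (-0.61) and higher at 24 h at the low dose (0.65).

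The counts behind pxy-mir-1175-3p are few, and the number of rows that list it moved with the dose at 24 h. At 24 h the high-dose libraries listed it in 4, 4 and 6 rows and the low-dose libraries in 2, 3 and 2 rows. The largest row alone had 10, 11 and 16 counts at the high dose and 12, 6 and 11 at the low dose, which overlap, and with that row in place of the sum the dose difference was 0.46 (adjusted p = 0.704, edgeR). In all, the high-dose libraries at 24 h had 28682, 34545 and 40388 counts and the low-dose libraries 37741, 41160 and 41214. The part of the lowest listed value of 5 and of depth in the difference was not tested. The dose difference at 24 h passed when only the libraries of that comparison were fitted (1.18, adjusted p = 0.006, edgeR), with upper quartile factors (1.46, adjusted p = 0.0379) and without high-dose replicate 1 at 6 h (1.11, adjusted p = 0.0409). The time difference at the high dose passed with library totals (1.70, adjusted p = 0.0451, edgeR) and without high-dose replicate 3 at 6 h (2.29, adjusted p = 0.0393), which leaves a single listed library at 6 h. It was smaller without the unlisted library, high-dose replicate 1 at 6 h (0.98, adjusted p = 0.267, edgeR), and with the largest row in place of the sum (0.35, adjusted p = 0.916).

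**Figure D3:**
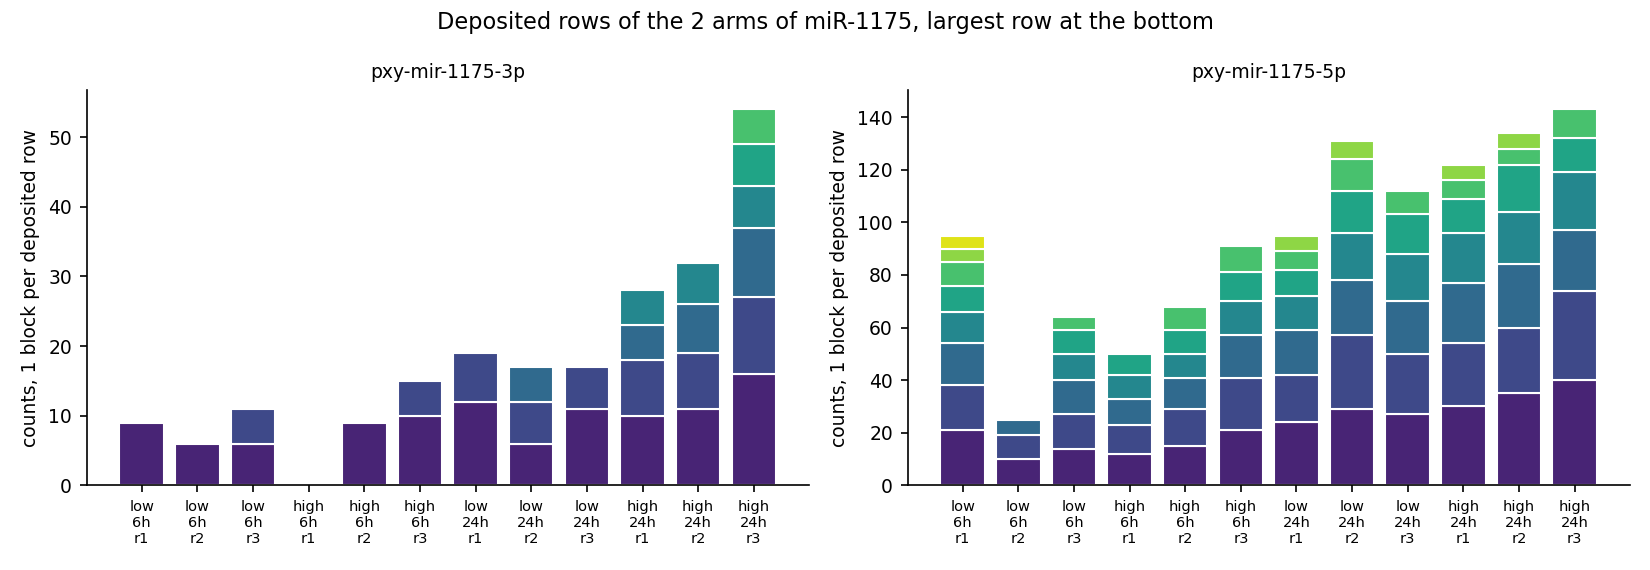
Counts of the 2 arms of miR-1175 in each library, stacked by deposited row with the largest row at the bottom (r1 to r3 are replicates). For pxy-mir-1175-3p the largest row has 10 to 16 counts in the high-dose libraries at 24 h and 6 to 12 in the low-dose ones, while the number of rows is 4 to 6 against 2 to 3.

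Ratios of counts within a library do not depend on how libraries are scaled. The 3p arm of miR-750 exceeded the 5p arm in all 12 libraries, 2.26-fold to 7.17-fold. Its ratios were 4.58, 3.23 and 3.48 at the low and 5.60, 2.26 and 4.32 at the high dose after 6 h. After 24 h they were 6.61, 7.17 and 5.89 at the low and 4.89, 6.05 and 3.69 at the high dose. The low-dose libraries at 24 h did not overlap the low-dose libraries at 6 h, whereas the doses overlapped at both times. Averaged over doses, the ratio was higher at 24 h by a log2 of 0.57 (1.49-fold, two-sided exact permutation p = 0.045 with times permuted within doses, 12 libraries, adjusted p = 0.138 over 10 ratio tests), which does not pass the adjustment. Between doses, averaged over times, it differed by -0.21 (exact permutation p = 0.405). Within the low dose the time difference was 0.81, and p = 0.1 is the smallest an exact permutation test of 3 against 3 libraries allows. Within the high dose the time difference was 0.33 (exact permutation p = 0.6), and the times overlapped.

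In miR-1175 the 5p arm exceeded the 3p arm in the 11 libraries that list both, 2.65-fold to 10.6-fold. The excess of the 5p arm was 5.0, 7.71 and 6.59 at the low and 4.36, 4.19 and 2.65 at the high dose after 24 h. These groups do not overlap, the 5p arm exceeding the 3p arm less at the high dose, a log2 difference in 3p over 5p of 0.80 (exact permutation p = 0.1, the smallest possible). The largest rows of the 3p and 5p arms were 10 and 30, 11 and 35, and 16 and 40 counts at the high dose. At the low dose they were 12 and 24, 6 and 29, and 11 and 27. In the largest rows alone, the ratios of the 2 doses at 24 h overlap. At 6 h the excess was 10.6, 4.17 and 5.82 at the low dose and 7.56 and 6.07 in the 2 high-dose libraries, which lie within the low-dose range. Averaged over times the dose difference in this ratio was 0.35 (exact permutation p = 0.3, 11 libraries). It fell to 0.077 with the largest rows in place of sums and turned to -0.18 with a pseudocount of 1, which brings in the unlisted library. The time difference averaged over doses turned from 0.45 to -0.54 with the largest rows, so no direction is given for either.

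**Figure D4:**
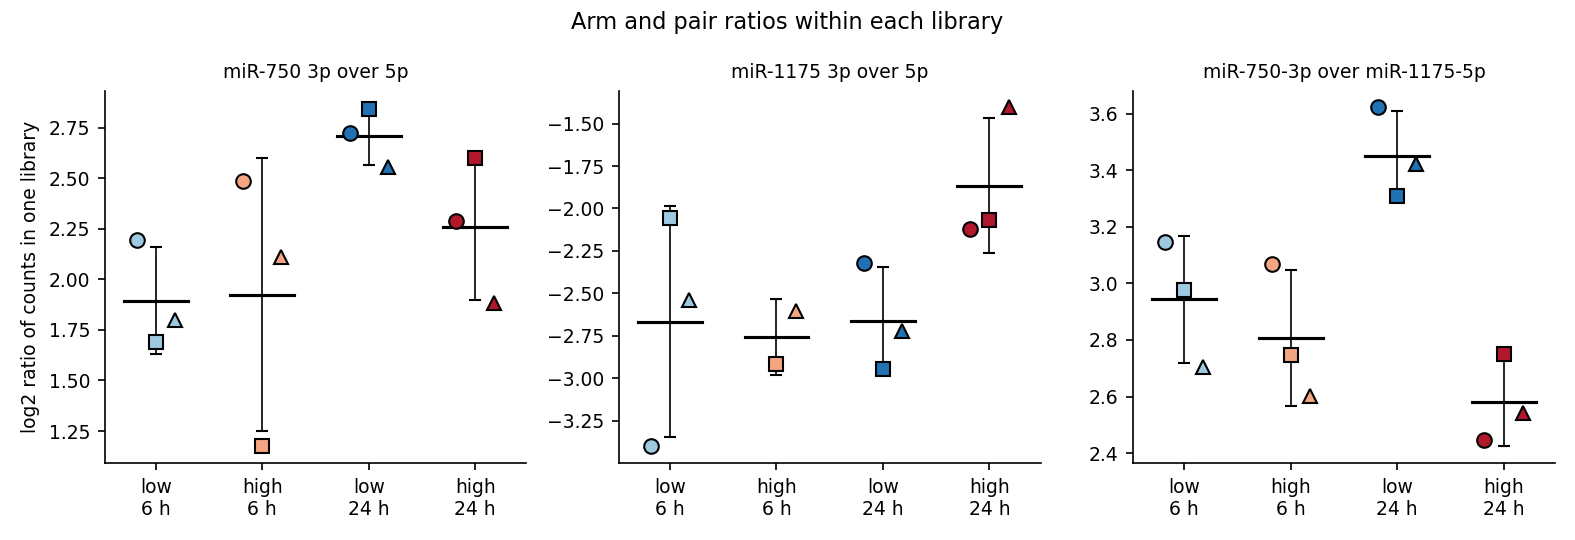
Log2 ratios of counts within each library for the arms of miR-750, the arms of miR-1175 and the more abundant arm of each miRNA, by group. Points are libraries, horizontal lines group means and whiskers SD; axes do not start at 0. In the right panel the low-dose libraries at 24 h (linear ratio 9.90 to 12.3) lie above all others, and in the middle panel 1 library at 6 h has no value.

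Among the 6 hairpins whose arms are both listed in all 12 libraries, a set to which miR-1175 does not belong, 2 had more 3p than 5p (miR-750 and miR-308) and 4 more 5p. The dominant arm was in excess by 1.66-fold to 58.1-fold, and miR-750 stood at 4.58-fold, the third highest. The time difference in its arm ratio averaged over doses, 0.57 on the log2 scale, was the largest of the 6, whose median was 0.19. On this average the ratio of 3p over 5p was higher at 24 h in all 6, from 0.10 for pxy-mir-278 upward. Within groups the log2 ratio of miR-750 had a pooled SD of 0.41. The dose difference of miR-750 at 24 h, -0.45, was the fifth in size. For 2 of the 6, pxy-miR-281 and pxy-mir-278, the doses did not overlap at 24 h, and miR-750 was not among them.

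The ratio between the members of the pair was not shown to differ by dose or time. None of the 10 ratio tests, which also cover the arm ratios, passed the adjustment. The more abundant arms, pxy-miR-750-3p over pxy-mir-1175-5p, stood at 8.86, 7.88 and 6.52 at the low and 8.40, 6.71 and 6.08 at the high dose after 6 h. After 24 h the ratio was 12.3, 9.90 and 10.7 at the low and 5.45, 6.73 and 5.83 at the high dose. The low-dose libraries at 24 h were the 3 highest of the 12. At 24 h the ratio was 1.83-fold lower at the high dose (log2 -0.87, exact permutation p = 0.1, the smallest possible for 3 against 3), and at 6 h it differed by -0.14 (exact permutation p = 0.5). Averaged over times the difference was -0.50 (exact permutation p = 0.025 with doses permuted within times, 12 libraries, adjusted p = 0.138 over 10 ratio tests) and did not pass the adjustment. From 6 h to 24 h the ratio rose by a log2 of 0.51 at the low dose, without overlap (exact permutation p = 0.1). At the high dose it differed by -0.23, with overlap (exact permutation p = 0.3). The time difference averaged over doses, 0.14 (exact permutation p = 0.42), mixes these opposite signs. This ratio of unlike arms was added once the values were known.

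For the arms of the same side, pxy-miR-750-3p exceeded pxy-mir-1175-3p 61.6-fold to 76.3-fold in the low-dose and 15.4-fold to 28.2-fold in the high-dose libraries at 24 h, which do not overlap. Each name alone also did not overlap there, as for 41.1% of tested names, so the ratio is not separate evidence. Averaged over times the log2 difference between doses was -0.92 (exact permutation p = 0.05, 11 libraries, adjusted p = 0.138). It was -0.31 (exact permutation p = 0.73) with a pseudocount of 1, which brings in the unlisted library, and -0.63 (exact permutation p = 0.13) with the largest rows. Between times the ratio of the 3p arms differed by 0.50 at the low dose and by -0.99 at the high dose, without the unlisted library. The average over doses was -0.24 (exact permutation p = 0.55). The ratio of the 5p arms, pxy-miR-750-5p over pxy-mir-1175-5p, ranged from 1.11 to 2.97. It was lower at 24 h than at 6 h by -0.43 on average over doses (exact permutation p = 0.055, adjusted p = 0.138, 12 libraries) and differed by -0.29 between doses (exact permutation p = 0.18).

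Across libraries the pair showed no co-variation past the test. Over the 12 libraries pxy-miR-750-3p and pxy-mir-1175-5p had Pearson r = 0.178 (permutation p = 0.58) and Spearman rho = 0.231 (permutation p = 0.47), on log2 CPM, and r = 0.262 without the 2 libraries farthest from the median of pxy-miR-750-3p. As deviations from their group means, which removes dose and time, r was 0.473 (exact permutation p = 0.158) and rho 0.517 (exact permutation p = 0.136), with adjusted p = 0.475 and 0.407 over the 6 pairs of members, and r = 0.401 without the 2 farthest libraries. For comparison, the quartiles of within-group r over the 1596 pairs among 57 names listed in all libraries were -0.313 and 0.335. The group means ran in different orders, low dose at 24 h being highest for pxy-miR-750-3p and high dose at 24 h for pxy-mir-1175-5p.

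The 2 arms of miR-750 did not rise and fall together either. Their within-group r was -0.416 (exact permutation p = 0.12) and rho -0.601 (exact permutation p = 0.0502), with adjusted p = 0.475 and 0.301, and r was -0.229 over the 12 libraries as they stand. The within-group r of both arms ranged from -0.493 to 0.259 over the 6 hairpins with both arms in all libraries. Of the other 4 pairs of members, within-group r ran from -0.571, for pxy-miR-750-3p with pxy-mir-1175-3p over 11 libraries (exact permutation p = 0.248), to 0.023, for the 5p arms, and none passed. Leaving out 1 library at a time moved the first of these from -0.904 to -0.039.

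**Figure D5:**
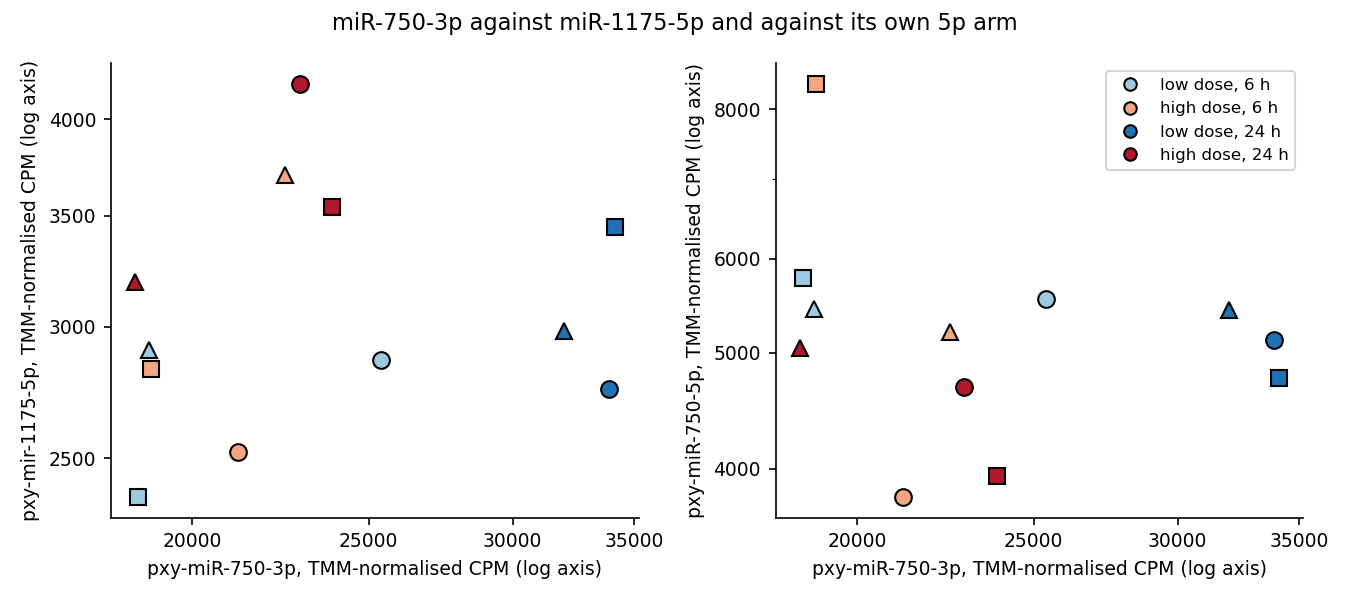
Levels of pxy-mir-1175-5p (left) and pxy-miR-750-5p (right) against pxy-miR-750-3p in TMM-normalised CPM, both axes logarithmic. Each point is 1 of 12 libraries, coloured by group, with circle, square and triangle for replicates 1, 2 and 3. The low-dose libraries at 24 h stand apart to the right at 31999 CPM and above, while their pxy-mir-1175-5p lies within the range of the other groups.

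The names most like pxy-miR-750-3p over the 12 libraries were pxy-mir-317-3p (r = 0.768), pxy-miR-8521a-3p (0.748) and pxy-miR-8489a-3p (0.734), by Pearson r of log2 CPM among 72 other tested names. Its pair ranked far lower, pxy-mir-1175-5p at place 43 and pxy-mir-1175-3p at place 49, and its own 5p arm at place 61. For pxy-mir-1175-3p the most alike were pxy-mir-12-5p (0.734), pxy-miR-8495-5p (0.652) and the muscle miRNA pxy-mir-1-3p (0.598) with the unlisted library entered as 0, but pxy-miR-308-3p (0.851), pxy-miR-8525-5p (0.797) and pxy-let-7-5p (0.759) over the 11 libraries that list it. These values share library depth and scaling and are given without a test.

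Of miRNAs of other insect clusters, 15 were tested. Between doses at 24 h, where 16.4% of all tested names passed (6.85% higher and 9.59% lower), 3 were higher at the high dose, pxy-let-7-5p (0.84), pxy-mir-12-5p (0.54) and pxy-miR-277-3p (0.72), 1 was lower, pxy-mir-317-3p (-2.05), and 11 did not pass, with a median log2 fold change of -0.16, as over all tested names. None passed between doses at 6 h (edgeR), where 1.37% of tested names did and 13 names had an unadjusted p under 0.05. From 6 h to 24 h, 1 rose and 2 fell at the low dose, where 19.2% of tested names passed, and 1 rose at the high dose, where 6.85% passed.

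Of 3 other midgut and tubule miRNAs, pxy-miR-281-5p (-0.61) and pxy-miR-263a-5p (-0.47) were lower at the high dose after 24 h. In that comparison 9.59% of all tested names were called lower and 6.85% higher. Fewer names were called lower there with library totals or upper quartile factors. The calls on pxy-miR-281-5p and pxy-miR-263a-5p under those settings are not given here. There pxy-miR-281-3p (0.07, adjusted p = 0.784, edgeR) did not pass, nor did pxy-mir-1175-5p (0.24). Between times, pxy-miR-281-5p rose at the low dose (0.37), where 13.7% of tested names were called higher. At the high dose pxy-miR-263a-5p fell (-0.50), where 4.11% were called lower. None of the 3 midgut and tubule miRNAs passed between doses at 6 h, where 1.37% of tested names did. Of 3 tested miRNAs of families tied to calcium release or diamide response, none passed between doses at 24 h, where 16.4% of names did. At the low dose pxy-miR-14b-5p was lower after 24 h than after 6 h (-1.36, adjusted p = 0.000582, edgeR), as were 5.48% of tested names. It was also lower at the high dose after 6 h (-0.96, adjusted p = 0.0437, edgeR), the 1 call of that comparison, but no name was called lower there with DESeq2, RLE or upper quartile factors, the replicate block, the scaled row minimum or only the compared libraries.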

How the data were processed

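Total RNA of whole larvae went into TruSeq small RNA libraries read for 50 nt on an Illumina HiSeq, per the labels' protocols. The authors deposited raw counts per listed miRNA row, per the file headers. How reads were mapped, to which reference and with what filter is not stated in these sources. No molecular identifiers are named, and counting intervals cover counting error only. All rows of a name were summed. The members and lists were chosen with earlier results of these data known. The labels call the libraries biological replicates, and pairs within a group differed by more than sampling noise (chi-square over its degrees of freedom 2.87 to 10.1). edgeR 4.0.16 in R 4.3.3 tested differences: filterByExpr (minimum count 10), TMM, and a quasi-likelihood fit of group means over the 12 libraries, with Benjamini-Hochberg adjustment over 73 names and a threshold of 0.05, after a check on simulated data. The 5 comparisons set dose against dose at each time, time against time at each dose, and one dose effect against the other. The standard error is the log2 fold change over the root of F. Correlations used log2 CPM with a prior count of 0.5. Ratios were tested by exact permutation within strata, correlations by exact permutation within groups or, pooled, with 100000 resamples (scipy 1.17.1). By the rule for named miRNAs, the 4 members are given throughout, with the 3 names most like each 3p arm and counts for 3 lists. Added after the data were seen were ratios and correlations of pxy-mir-1175-3p over the 11 libraries that list it, the ratio of the more abundant arms, and the omission of the 2 shallowest libraries. Other alternatives were DESeq2 1.42.0, RLE and upper quartile factors, library totals, no filter, the replicate number as a block, the highest row, a row minimum scaled to depth, only the compared libraries, a pseudocount of 1 and each library left out.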

Additional observations from a re-analysis of the deposited data

How the results depend on the processing

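The files list totals of 10714 to 41214 counts and no row under 5, which limits pxy-mir-1175-3p most. Of the log2 fold changes of the members under other settings, 161 kept direction and side of the threshold, 20 changed sign, 8 newly passed and 2 no longer passed. The 161 include pxy-mir-1175-3p between doses at 24 h with DESeq2 (1.18), which kept direction but was given no adjusted p. None of those that changed sign passed (edgeR or DESeq2), and the cause was not tested.

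Between doses at 6 h, pxy-miR-750-3p turned to 0.0038 with DESeq2, 0.0043 with RLE factors, 0.16 with upper quartile factors, 0.034 with the highest row, 0.049 with the scaled row minimum and 0.044 with only the compared libraries. There pxy-miR-750-5p turned to -0.073 with library totals, pxy-mir-1175-5p to -0.0016 with totals and -0.036 with the scaled minimum, and pxy-mir-1175-3p to 0.46 without the 2 shallowest libraries. Between doses at 24 h, pxy-miR-750-5p turned to 0.065 with totals, 0.23 with upper quartile factors, 0.19 with the highest row and 0.078 with the scaled minimum. Between times at the low dose, pxy-mir-1175-5p turned to -0.056 with totals and -0.27 with the scaled minimum, and pxy-mir-1175-3p to -0.34 with the highest row. For the difference of the dose effects, pxy-miR-750-5p turned to 0.14 with totals, 0.007 with upper quartile factors and 0.16 with the highest row.

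Between doses at 24 h, pxy-miR-750-3p did not pass with totals (-0.39) or upper quartile factors (-0.24). There pxy-mir-1175-3p newly passed with upper quartile factors (1.46), only the compared libraries (1.18) and without the 2 shallowest libraries (1.18), and pxy-mir-1175-5p with upper quartile factors (0.62) and the scaled minimum (0.99), under which pxy-mir-1175-3p was not tested. Between times at the high dose, pxy-mir-1175-3p newly passed with totals (1.70) and pxy-miR-750-5p without the 2 shallowest libraries (-0.54, adjusted p = 0.0234, edgeR).

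With the highest row, the time difference turned to -0.54 for miR-1175 3p over 5p and to 0.72 for miR-750-3p over miR-1175-3p, and with a pseudocount of 1, which enters the unlisted library, the dose difference of miR-1175 3p over 5p turned to -0.18. Within-group r turned to -0.017 (RLE), -0.097 (totals) and -0.094 (highest row) for the 5p arms, to 0.017 (upper quartile) and 0.348 (highest row) for pxy-miR-750-5p with pxy-mir-1175-3p, and to 0.235 and 0.367 under the same settings for the arms of miR-1175.

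The deviations of same-numbered libraries of different groups had r from -0.345 to 0.354 over 18 pairs (median -0.0885, 5 over 0.1). For the 36 other pairs r ran from -0.411 to 0.458 (median 0.0215, 12 over 0.1). Whether the numbers pair the libraries was not tested. With the replicate block, the difference of the dose effects for pxy-miR-750-3p passed (-0.61, adjusted p = 0.0419, edgeR), and no other call on a member changed. The block gave 0 calls in place of 1 between doses at 6 h.

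Leaving out each library gave these ranges. Between doses at 6 h they were -0.12 to 0.19 for pxy-miR-750-3p, -0.30 to 0.28 for pxy-miR-750-5p, -1.05 to 0.27 for pxy-mir-1175-3p and -0.090 to 0.24 for pxy-mir-1175-5p. Between doses at 24 h they were, in the same order, -0.69 to -0.39, -0.13 to -0.0044, 1.01 to 1.31 and 0.20 to 0.48. Between times at the low dose they were 0.49 to 0.74, -0.25 to -0.13, -0.21 to 0.33 and -0.051 to 0.15. Between times at the high dose they were -0.052 to 0.16, -0.62 to -0.037, 0.98 to 2.29 and 0.094 to 0.43. For the difference of the dose effects they were -0.68 to -0.40, -0.40 to 0.19, 0.84 to 2.16 and 0.050 to 0.38, and pxy-miR-750-3p passed without replicate 1 of the low dose at 6 h and without replicate 2 of the high dose at 24 h. No ratio changed direction. Within-group r ran from -0.593 to -0.261 for the arms of miR-750, -0.904 to -0.039 for the 3p arms, 0.341 to 0.595 for pxy-miR-750-3p with pxy-mir-1175-5p, -0.396 to 0.409 for pxy-miR-750-5p with pxy-mir-1175-3p, -0.614 to 0.311 for the 5p arms and -0.525 to 0.111 for the arms of miR-1175.

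Calls over all names numbered 1, 12, 14, 5 and 6 for the doses at 6 h and 24 h, the times at the low and high dose and the contrast of both dose effects. At 6 h they ranged from 0 (RLE, block, scaled minimum, only the compared libraries) through 2 (totals, highest row), 3 (no filter) and 4 (upper quartile) to 8 (without the 2 shallowest libraries). Between times at the low dose they fell to 8 (RLE, highest row, only the compared libraries) or 6 (upper quartile, scaled minimum), and at the high dose to 3 (upper quartile, scaled minimum). For the difference of the dose effects they were 3 with upper quartile factors and 12 without the 2 shallowest libraries. Between doses at 24 h the split of 5 higher and 7 lower became 13 and 2 with upper quartile factors and 7 and 4 with totals, and between times at the low dose 10 and 4 became 4 and 6 with totals. Leaving out each library gave 0 to 7, 7 to 19, 5 to 13, 3 to 7 and 3 to 9 calls.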

Other observations

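The rows of a name also differed in how evenly they shared its counts, a comparison chosen after the values were seen and given without a test. For pxy-miR-750-5p the largest row over the second was 1.96, 2.05 and 2.03 at the low dose after 6 h and 1.11, 1.06 and 1.06 after 24 h. At the high dose it was 1.65, 2.0 and 1.32 after 6 h and 1.30, 1.38 and 1.28 after 24 h. The 3 low-dose libraries at 24 h were the most even of the 12. The low-dose groups at 6 h and 24 h did not overlap, and neither did the doses at 24 h, but each is the case for 42.4% of the 33 names with at least 2 rows in all libraries. At the low dose 8 of these were lower at 24 h, like pxy-miR-750-5p, and 6 higher. Between doses at 24 h, 3 were higher at the high dose, like pxy-miR-750-5p, and 11 lower. Among the 11 was pxy-miR-750-3p, with 2.36, 2.32 and 2.06 at the low and 1.94, 1.95 and 1.68 at the high dose.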
